A study of Mus musculus with 9 samples.

Results

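Open chromatin at 10 genes of retinoic acid reception and retinoid metabolism was compared between LT-HSCs (long-term haematopoietic stem cells) and MPPs (multipotent progenitors), and between cells lacking the retinoid X receptors (RXRs) and wild-type cells. The genes were the receptors Rara, Rarb and Rarg, the retinoic acid binding protein Crabp2, the retinol transporter Stra6, the enzymes Rdh10, Aldh1a1 and Dhrs3, and the retinoic acid hydroxylases Cyp26a1 and Cyp26b1. Accessibility had been measured in sorted bone marrow cells of C57BL/6 mice by ATAC-seq, an assay that reads open DNA from the places where the Tn5 enzyme can cut and tag it. The authors deposited 1 list of called peaks for each of 9 libraries. LT-HSCs of genotype RXRa/RXRb-KO gave 3 libraries (KO 1, 2 and 4) and WT LT-HSCs gave 2 (WT 2 and 3). MPPs of genotype RXRa/RXRb-KO gave 2 libraries (KO 1 and 2) and WT MPPs gave 2 (WT 1 and 2). The cells came from pooled animals ("pulled" in the labels), and their ages, the deleted segments and any Cre driver are not stated there. Merging the overlapping peaks of the 9 lists (1 bp or more) gave 117465 regions. A region was given to the gene that holds its midpoint, or else to the nearest protein-coding gene end on mm10 within 100 kb. By this rule 102 of the 117465 regions belonged to the 10 genes.

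Retinoic acid is made from retinol in a pair of oxidation steps and binds the retinoic acid receptors (RARs). A RAR pairs with a RXR on DNA at direct repeats of a short half-site, and it holds corepressors there without ligand and coactivators with it. Rarb and Cyp26a1 are classical direct targets, so the pathway feeds back on its own receptor and on its own breakdown, and in blood formation retinoic acid is known for its part in stem cell dormancy and in myeloid differentiation.

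The sequences of 3 start sites are shown because the peaks over them, at Rarb, Cyp26a1 and Aldh1a1, are described below. Each line is the RefSeq GRCm38.p6 window from 250 bases before to 50 bases after a listed start, read 5′ to 3′ on the gene's strand. Capitals mark a direct repeat of 2 half-sites, found on either strand with 1, 2 or 5 bases between them. The half-site AGGTCA was searched along with its variant AGTTCA, the form GGGTCA and the form GGTTCA.
Rarb, chr14:16575427-16575726, minus strand: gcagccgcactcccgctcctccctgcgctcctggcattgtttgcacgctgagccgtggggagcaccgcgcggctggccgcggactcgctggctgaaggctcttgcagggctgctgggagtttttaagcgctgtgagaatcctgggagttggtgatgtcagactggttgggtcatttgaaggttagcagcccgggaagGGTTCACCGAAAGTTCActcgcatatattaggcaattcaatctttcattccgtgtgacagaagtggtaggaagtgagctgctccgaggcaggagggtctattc
Cyp26a1, chr19:37697558-37697857, plus strand: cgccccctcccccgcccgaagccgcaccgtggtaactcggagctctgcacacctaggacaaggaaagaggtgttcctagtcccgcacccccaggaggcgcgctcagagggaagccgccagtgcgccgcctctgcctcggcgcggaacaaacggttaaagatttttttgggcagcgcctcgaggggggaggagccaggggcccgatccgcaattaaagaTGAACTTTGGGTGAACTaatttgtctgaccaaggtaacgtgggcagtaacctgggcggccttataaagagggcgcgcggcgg
Aldh1a1, chr19:20601718-20602017, plus strand: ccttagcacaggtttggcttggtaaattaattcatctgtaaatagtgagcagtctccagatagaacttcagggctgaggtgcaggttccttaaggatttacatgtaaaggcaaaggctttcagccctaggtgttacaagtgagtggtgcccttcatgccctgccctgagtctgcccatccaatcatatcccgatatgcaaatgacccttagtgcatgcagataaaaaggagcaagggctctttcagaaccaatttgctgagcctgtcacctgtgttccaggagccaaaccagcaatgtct
The Rarb repeat begins at -53 from the start and has a spacer of 5 bases. The Cyp26a1 repeat begins at -32, lies on the opposite strand and also has a spacer of 5 bases. Of 32851 listed promoter windows of this length, 0.0974% held a repeat with that spacer and 0.588% held any of the 3 kinds. No listed window of Rara, Rarg, Dhrs3, Stra6, Cyp26b1 or Aldh1a1 held one of these repeats. A peak lay over the Rarb window in all 9 libraries, over the Cyp26a1 window in 1 library (MPP WT 2), and over the Aldh1a1 window in 5 of 5 LT-HSC and 2 of 4 MPP libraries.

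The LT-HSC libraries stood apart from each other more than the MPP libraries did. Their lists held between 22690 and 71586 peaks, against 78189 to 86353 in MPPs. Over the 13908 regions held by all 9 libraries, the strength ranks of LT-HSC KO 1 and KO 2 correlated at r = 0.84 and those of LT-HSC KO 4 and WT 2 at r = 0.87, while KO 1 and KO 4 reached 0.54. The correlation between MPP libraries lay between 0.96 and 0.98. LT-HSC WT 2 and WT 3 correlated with the MPP libraries at 0.66 to 0.77, above their 0.54 to 0.61 with LT-HSC KO 1 and KO 2. These values describe regions that share a library and are no test. The libraries therefore did not sort by genotype within LT-HSCs, and did not sort fully by cell type. The deposited values give no read depth, and libraries with short lists hold fewer regions, so each share below stands beside that of all regions. In sorted bulk cells, a region open in fewer cells and one less open in every cell cannot be told apart. Among regions tested for presence between the cell types, LT-HSC marker genes had 2 of 56 that were LT-HSC-only and 8 that were MPP-only. MPP marker genes had 0 of 22 that were LT-HSC-only and 7 that were MPP-only. MPP-only regions also occurred at markers of T cells (7 of 9), B cells (4 of 9), mature myeloid cells (10 of 19) and stromal cells (10 of 19), with 0 of 4 at erythroid markers and 0 LT-HSC-only calls in these lists. Over all regions tested, 31.9% were MPP-only and 0.442% LT-HSC-only. On average 10% to 23.7% of LT-HSC libraries held a region of the T, B, myeloid and stromal lists, against 70.3% to 86.5% of MPP libraries. For all regions the means were 34.8% in LT-HSCs and 68.9% in MPPs. The part of these markers in the results was not tested. Rxra held 27 regions and Rxrb 3, but presence of a peak does not check a deletion whose segment is not given.

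In full lists the regions of the retinoid genes were held about as often as regions in general, more by the longer MPP lists than by LT-HSC lists, while at equal list length LT-HSC lists held more of them than MPP lists. LT-HSC KO libraries held 23.5%, 39.2% and 60.8% of the 102 regions and LT-HSC WT libraries 43.1% and 19.6%, against 61.8% and 65.7% in MPP KO and 66.7% and 68.6% in MPP WT libraries. The mean was 37.3% ± 16.5 in LT-HSCs (SD, n = 5) and 65.7% ± 2.89 in MPPs (SD, n = 4), and the ranges did not overlap. Over all regions the same means were 34.8% in LT-HSCs and 68.9% in MPPs. When each list was cut to its strongest 22690 peaks, the length of the shortest, the LT-HSC mean was 20% ± 2.15 and the MPP mean 13.5% ± 0.939, against 18.98% and 19.2% for all regions. At equal length the LT-HSC libraries thus lay between 17.6% and 23.5% and the MPP libraries between 12.7% and 14.7%, without overlap.

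**Figure D1:**
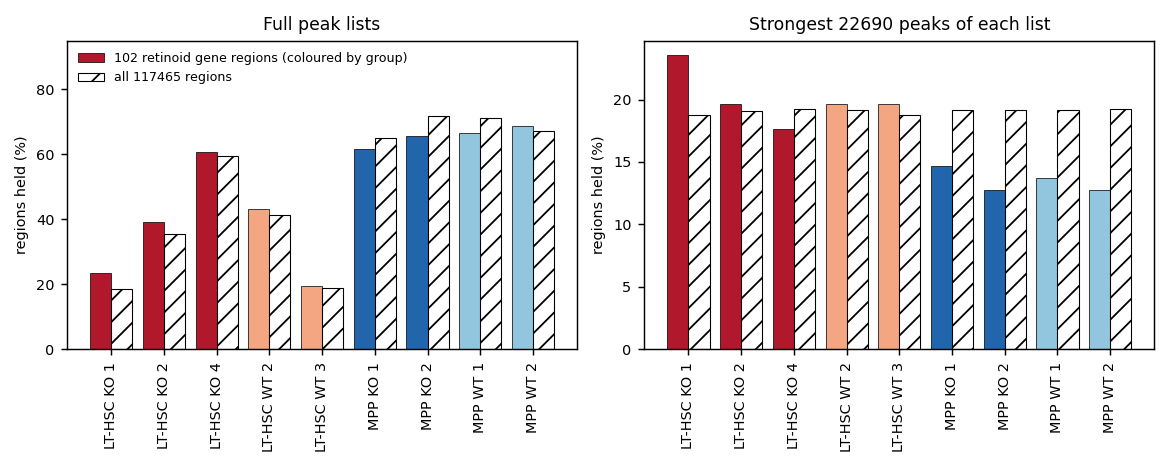
Percent of the 102 retinoid gene regions (coloured bars) and of all 117465 regions (hatched bars) held by each library, with full lists on the left and the strongest 22690 peaks of each list on the right. In full lists the 4 MPP libraries hold 61.8% to 68.6% of the retinoid regions, and at equal length they hold 12.7% to 14.7%, below the hatched bars.

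Rarb had 34 of the 102 regions, Rara 18, Cyp26b1 11, Cyp26a1 10, Rarg 9, Dhrs3 6, Rdh10 4, Aldh1a1 4, Crabp2 3 and Stra6 3. Of the 102, 73 lay inside their gene (71.6%, against 55.8% of all regions) and 13 lay over 10 kb from it (12.7%, against 27.2%). Whether a region is exonic or intronic was not analysed here. In all, 9 regions were held by all 9 libraries (8.82%, against 11.8% of all regions), 54 by all 4 MPP libraries (52.9%, against 54.5%), 13 by all 5 LT-HSC libraries (12.7%, against 12.3%), and 19 by 1 library (18.6%, against 18.5%). A region and a library together make a pair that is held or not. In full lists the share of pairs held was lower in LT-HSCs for every gene but 1, as it was over all regions (34.8% in LT-HSCs against 68.9% in MPPs), from 13.3% in LT-HSCs against 66.7% in MPPs for Stra6 to 42.9% against 52.2% for Rarb. Aldh1a1 ran the other way, with 75.0% in LT-HSCs against 18.8% in MPPs. At equal list length Aldh1a1 (2 to 3 regions in LT-HSC lists, against 0 in each MPP list) and Rarb (6 to 13 in LT-HSC lists, against 2 to 3 in MPP lists) were both held more in LT-HSCs without overlap, and for the other genes the ranges met or overlapped.

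**Figure D2:**
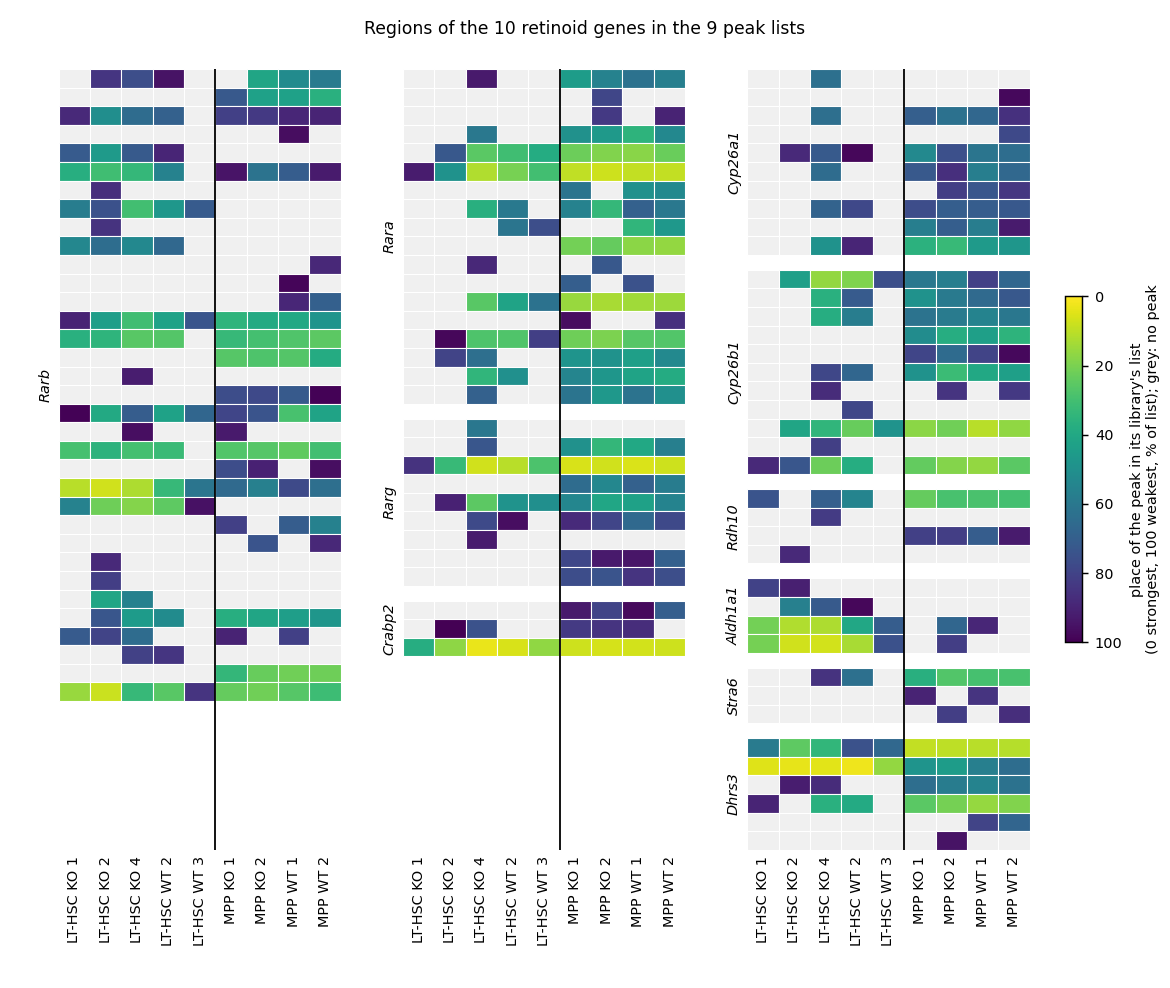
Each row is a region of the named gene in genome order and each column a library, coloured by the place of its strongest peak in that library's own list (percent of the list, 0 strongest) and grey where the list has no peak. The right part of each panel, the MPP libraries, is filled more fully, except in the 4 rows of Aldh1a1, and the Rarb panel has rows filled only on the left and rows filled only on the right.

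Presence was tested with a two-sided Fisher's exact test of 5 LT-HSC against 4 MPP libraries for each of 52020 regions held by 3 to 6 libraries. The smallest p this design allows is 0.00794, which became 0.0245 after Benjamini-Hochberg adjustment over all 52020, and only complete separations reached it. Of 45 retinoid regions tested, 2 (4.44%) were held by all LT-HSC and no MPP libraries, against 0.442% of all regions tested. A further 13 (28.9%) were held by all MPP and no LT-HSC libraries, against 31.9% of all regions tested. The LT-HSC-only regions were both in Rarb. The MPP-only regions were spread over 7 genes, with 4 in Rarb, 3 in Rarg, 2 in Cyp26b1 and 1 each in Rara, Crabp2, Cyp26a1 and Rdh10. Their share was close to that of all regions. The adjusted value rests on the number of regions separated over the whole genome, 230 in LT-HSCs and 16604 in MPPs.

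In equal-length lists the balance differed. Of 14 retinoid regions tested, 6 (42.9%) were held by the 5 LT-HSC lists alone, against 10.9% of the 13515 regions tested in all. Another, in Rara, was held by the 4 MPP lists alone (7.14%, against 21.1%). The 6 were 3 of Rarb, 2 of Aldh1a1 and 1 of Dhrs3 (exact p = 0.00794, adjusted 0.0248 for each by Fisher's exact test). Those of Rarb began at 16555140, 16605447 and 16613955. In full lists all 4 MPP libraries held the regions at 16555140 and 16605447 and the Dhrs3 region, so there the call rests on the cut.

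Rarb, the receptor that retinoic acid itself induces, was open at partly different places in the 2 cell types. Its gene spans 651 kb of chromosome 14 (16430839 to 17082331, minus strand), and the listed start lies at 16575476, far inside it. LT-HSC KO libraries held 13, 20 and 19 of its 34 regions and LT-HSC WT libraries 15 and 6, against 17 and 16 in MPP KO and 19 and 19 in MPP WT libraries. The ranges overlapped. In these lists, 11 of the regions were seen in some LT-HSC library and no MPP library, and 11 in some MPP library and no LT-HSC library. These counts include 8 regions held by 1 library alone. The share of all regions with either pattern was not computed, so the counts describe these lists only. At equal list length the counts were 13, 11 and 6 in LT-HSC KO and 7 and 6 in LT-HSC WT, against 3 and 2 in MPP KO and 3 and 2 in MPP WT, without overlap.

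The LT-HSC-only regions of Rarb lay on either side of that start. The region at 16613955 to 16614442, -38.7 kb from it (negative is upstream), had places of 56.1%, 21.9% and 18.7% in the KO lists and 24.7% and 95.3% in the WT lists, a place being how far down its own list a peak stands, with 0 the strongest. It was also LT-HSC-only at equal length. The region at 16500813 to 16501248, 74.4 kb downstream, had places of 58.0%, 75.0% and 30.4% in the KO lists and 47.0% and 71.9% in the WT lists, and at equal length 3 of the 5 LT-HSC lists held it (adjusted p = 0.206, Fisher's exact test). LT-HSC WT 3, 1 of the 2 short lists, had the weakest place for the region at 16613955 and the second weakest for that at 16500813. With only peaks of −log10 q of at least 5, the region at 16613955 was kept by 4 of 5 LT-HSC lists and its adjusted p was 0.0756. A pair of further regions, 16457445 to 16458022 and 16519630 to 16519970, was held by 4 of 5 LT-HSC libraries, all but WT 3, and by no MPP library (exact p = 0.0476, adjusted 0.0786).

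The MPP-only regions of Rarb included the outer end of the gene. The region at 17081893 to 17082331 reaches the last annotated base of Rarb on its 5′ side, -507 kb from the listed start, and had places of 33.8% and 23.1% in the MPP KO lists and 21.5% and 21.99% in the MPP WT lists. The others lay downstream of the listed start, at 11.4 kb (16563893 to 16564331), 5.67 kb (16569642 to 16569963) and 128 kb (16447620 to 16447950). Of these 4, the region at 16563893 was placed highest after the outer end, between 26.3% and 38.7% of the lists. At equal list length 3 of the 4 MPP lists held the outer end and no LT-HSC list did (adjusted p = 0.0825, Fisher's exact test), so these regions lost their calls.

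**Figure D3:**
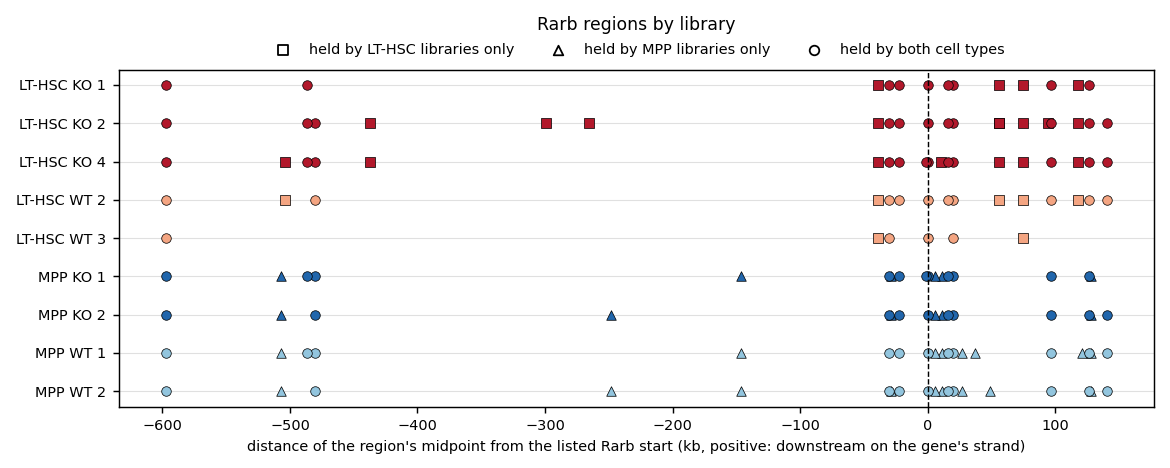
Positions of the Rarb regions held by each library, as the distance of the region's midpoint from the listed start in kb, with positive values downstream on the gene's strand. Squares (11 regions seen in LT-HSC libraries only) and triangles (11 seen in MPP libraries only) interleave around the start, and the squares at -38.7 kb and 74.4 kb are present in all 5 LT-HSC libraries. Squares and triangles include 8 regions held by 1 library alone. The share of all regions with either pattern was not computed, so the counts describe these lists of uneven length only.

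Rara, the most broadly expressed receptor of the family, had 18 regions, all of which some MPP library held. LT-HSC KO libraries held 1, 4 and 11 of them and LT-HSC WT libraries 7 and 5, against 14 and 14 in MPP KO and 14 and 15 in MPP WT libraries. The ranges did not overlap, but LT-HSC lists were shorter. The MPP-only region at 98952676 to 98953138 on chromosome 11 lay inside the gene. Its places were 21.4% and 23.8% in the MPP KO lists and 17.3% and 16.1% in the MPP WT lists, and it was the 1 retinoid region that was MPP-only at equal length too. The start region (98937444 to 98937811), which also lies in the overlapping gene Gm46294, was held by all 4 MPP libraries and by every LT-HSC library but KO 1.

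Rarg, the receptor linked to the self-renewal of haematopoietic stem cells in mice, had 9 regions on chromosome 15. LT-HSC KO libraries held 1, 2 and 6 and LT-HSC WT libraries 3 and 2, against 7 in each of the 4 MPP libraries. Of its 2 listed starts, the one at 102246500 had a peak in 0 of 5 LT-HSC and 4 of 4 MPP libraries (102246394 to 102246674), and the one at 102257522 in 2 of 5 LT-HSC and 4 of 4 MPP libraries. Close to the start at 102246500, however, at -0.662 kb, a region (102246860 to 102247464) was held by 4 of 5 LT-HSC and 4 of 4 MPP libraries. At equal length 2 LT-HSC lists and 0 MPP lists held that region. The other MPP-only regions lay 5.07 kb (102262465 to 102262725) and 8.23 kb (102265619 to 102265883) outside the gene. None of the 3 MPP-only regions was held by any equal-length list, so they were weaker peaks of the long MPP lists.

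Crabp2, which carries retinoic acid to the receptors, had its strongest region 7.57 kb outside the gene (chromosome 3, 87960626 to 87961253), and all 9 libraries held it, also at equal length. An MPP-only region lay 1.52 kb outside the gene (87947025 to 87947327), at places from 70.5% to 97.4% of the lists. Stra6, the membrane receptor that takes up retinol from its carrier in blood, had 3 regions and none over its 4 listed starts. The best held of them (chromosome 9, 58085183 to 58085600), which also lies in Ccdc33, was in LT-HSC KO 4 and WT 2 and in all 4 MPP libraries (exact p = 0.167, adjusted 0.202). No equal-length list held a Stra6 region.

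Aldh1a1, which oxidises retinaldehyde to retinoic acid and whose activity is used to mark stem cells, was open mainly in LT-HSCs. LT-HSC KO libraries held 3, 4 and 3 of its 4 regions and LT-HSC WT libraries 3 and 2, against 0 and 2 in MPP KO and 1 and 0 in MPP WT libraries. The region over the listed start shown above (chromosome 19, 20601690 to 20602300) had places of 21.3%, 11.95% and 12.2% in the LT-HSC KO lists and 40.4% and 70.9% in the LT-HSC WT lists, against 67.5% in MPP KO 2 and 89.4% in MPP WT 1. The region 12.5 kb downstream (20614177 to 20614718) had places of 21.1%, 7.24% and 6.98% in LT-HSC KO and 13.0% and 75.3% in LT-HSC WT lists, against 82.0% in MPP KO 2 alone. Both were LT-HSC-only at equal length. With full lists the start region, in 7 libraries, was outside the range tested, and the downstream region was not called (exact p = 0.0476, adjusted 0.0786). Leaving out MPP KO 2 gave the downstream region an adjusted p of 0.0339. The gene's outer start at 20492583 had no peak in any library.

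Rdh10, which makes retinaldehyde from retinol, had 4 regions on chromosome 1. The region next to its end at 16105882 (16105609 to 16105989) was held by LT-HSC KO 1, KO 4 and WT 2 and by all 4 MPP libraries. An MPP-only region lay 29.2 kb outside the gene (16161478 to 16162080). When peaks were reduced to windows around their summits, that region lost its call (adjusted p = 0.0803, Fisher's exact test).

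Dhrs3, which returns retinaldehyde to retinol and is itself induced by retinoic acid, had 6 regions on chromosome 4, all of which also lie in the larger gene Vps13d. The start region (144892187 to 144893031) and a region 5.34 kb downstream of a start (144898241 to 144898720) were both held by all 9 libraries. At equal length the downstream region was held by 5 of 5 LT-HSC and 0 of 4 MPP lists, whereas the start region was held by 3 of 5 LT-HSC and 4 of 4 MPP lists. The same contrast appears in the ranks below.

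Of the hydroxylases that break down retinoic acid, Cyp26b1 was held somewhat more often than regions in general in both cell types. Cyp26a1 was held less often than regions in general in LT-HSC lists and about as often in MPP lists. Cyp26b1 had 38.2% of its pairs held in LT-HSCs against 77.3% in MPPs and Cyp26a1 20% against 72.5%, where all regions had 34.8% against 68.9%. For Cyp26b1 LT-HSC KO libraries held 1, 3 and 8 of 11 regions and LT-HSC WT libraries 7 and 2, against 8 and 9 in MPP KO and 8 and 9 in MPP WT libraries. For Cyp26a1 LT-HSC KO libraries held 0, 1 and 6 of 10 regions and LT-HSC WT libraries 3 and 0, against 6 and 7 in MPP KO and 7 and 9 in MPP WT libraries. In both genes the ranges touched at LT-HSC KO 4, the longest LT-HSC list. At equal length Cyp26b1 had 1, 2 and 2 regions in LT-HSC KO and 3 and 2 in LT-HSC WT lists, against 2 in each MPP list, which overlapped. The MPP-only regions of Cyp26b1 on chromosome 6 lay 21.3 kb (84549866 to 84550411) and 2.42 kb (84568726 to 84569260) outside the gene, and that of Cyp26a1 lay 76.6 kb outside it (chromosome 19, 37777877 to 37778295). No Cyp26a1 region was in any equal-length list, and its start region (37697718 to 37697954), with the repeat shown above, was a weak peak of MPP WT 2 alone, at 97.9% of the list.

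The 9 retinoid regions held by all 9 libraries were compared by strength. Each library ranked the same 13908 shared regions by −log10 q, so that list length did not enter, and a percentile of 100 marks the strongest. The ranks were turned into normal scores and tested with limma, with 15% of all regions called higher in LT-HSCs and 14.2% higher in MPPs at an adjusted p under 0.05. Of the 9 regions, 2 were called higher in LT-HSCs and 1 higher in MPPs. The median difference in score (LT-HSC minus MPP) was 0.19 over the 9 regions and -0.05 over all.

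The Dhrs3 region 5.34 kb downstream of a start had percentiles of 92.5, 88.9 and 78.0 in LT-HSC KO and 91.1 and 73.9 in LT-HSC WT libraries, against 4.16 and 3.82 in MPP KO and 3.65 and 3.11 in MPP WT libraries. It was among the strongest shared regions in every LT-HSC library and among the weakest in every MPP library. The difference in score was 2.86 (SE 0.215, limma adjusted p = 0.000103). The Dhrs3 start had percentiles of 27.2, 36.9 and 6.22 in LT-HSC KO and 0.496 and 17.3 in LT-HSC WT libraries, against 54.2 and 48.3 in MPP KO and 47.0 and 47.9 in MPP WT libraries. It went the other way without overlap, with a difference of -1.28 (SE 0.354, limma adjusted p = 0.024). That call was lost with ranks by fold enrichment (adjusted p = 0.0635), without LT-HSC WT 2 (0.0809) and without any 1 of the MPP libraries (0.0699 to 0.083).

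Inside Rarb, the region at 16605447 to 16605870, -30.2 kb from the listed start, had percentiles of 83.1, 78.2 and 45.6 in LT-HSC KO and 14.8 and 21.2 in LT-HSC WT libraries, against 1.16 and 1.49 in MPP KO and 1.31 and 3.22 in MPP WT libraries. Every LT-HSC library lay above every MPP library (difference in score 1.94, SE 0.244, limma adjusted p = 0.000617). The 6 other shared regions were not called. They were the Rarb start region (16575234 to 16575830, adjusted p = 0.745), Rarb at 16555140 to 16555464 (0.751), the region 90.6 kb outside Rarb at 17172414 to 17173418 (0.564), Rara at 98941733 to 98943190 (0.125), Rarg at 102243250 to 102243863 (0.249) and the Crabp2 region (0.478), all by limma. Rarb at 16555140 was LT-HSC-only at equal length, yet its places in full lists were 34.8% to 48.4% in MPPs and 30.8% to 90.5% in LT-HSCs. Without LT-HSC KO 4, Rara and Rarg were called higher in MPPs (adjusted p = 0.00239 and 0.00883) and the region outside Rarb higher in LT-HSCs (0.012), where 24.6% of all regions shared by the 8 other libraries were then called higher in LT-HSCs and 26.4% higher in MPPs.

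**Figure D4:**
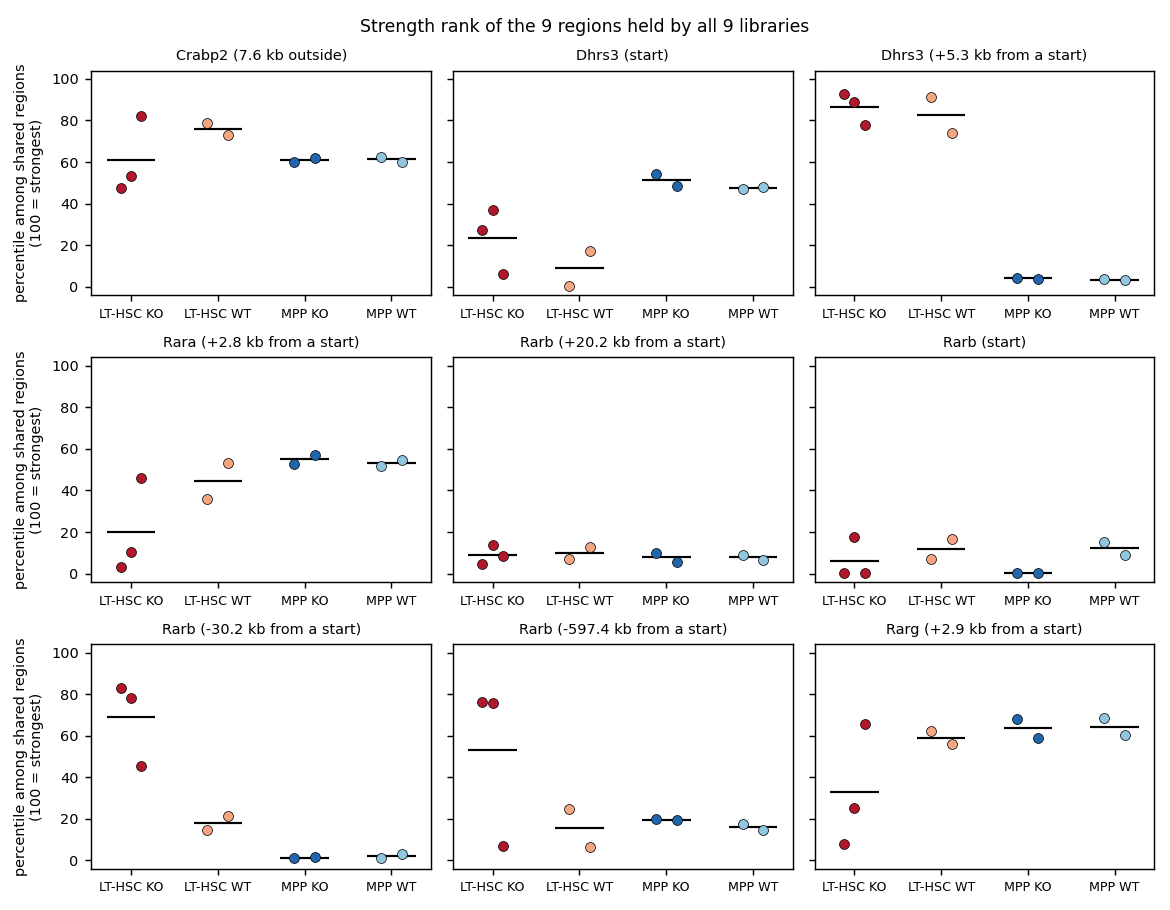
Strength percentile (100 strongest) of each of the 9 shared retinoid regions among the 13908 regions held by all libraries. Points are libraries and bars group means. The Dhrs3 region at 5.3 kb lies at 73.9 or above in LT-HSCs and at 4.16 or below in MPPs, and the Rarb region at -30.2 kb lies highest in the LT-HSC KO libraries.

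Between genotypes, no region of the genome passed adjustment with all libraries and no block, so 0% of all regions and none of the retinoid regions were called higher in KO or in WT cells. Presence was tested with an exact test that permuted genotype within cell type, over the 1565 regions able to reach an unadjusted p under 0.05. At that unadjusted level 2.36% of regions were more often held in KO and 0.128% in WT libraries. The retinoid genes had 2 such testable regions, of which 0 were higher in KO and 1 in WT. This region of Rara (chromosome 11, 98949656 to 98950027), named after its values were seen, was held by 0 of 5 KO and 4 of 4 WT libraries. It lay inside the gene, 10.1 kb downstream of a listed start, at 61.3% and 76.2% of the LT-HSC WT lists and 34.6% and 46.5% of the MPP WT lists. Of all 117465 regions, 1 other had this pattern, at Dguok, an enzyme of mitochondrial nucleotide supply. The exact p was 0.0167, the smallest the design allows, and the adjusted p was 0.669.

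The Rarb start region, over the repeat shown above, was ranked lower in KO than in WT MPPs, but not past adjustment. Among the 64003 regions held by all 4 MPP libraries its percentiles were 10.6 and 9.86 in MPP KO, against 61.2 and 47.8 in MPP WT libraries. The KO and WT values did not overlap. The difference in score (KO minus WT) was -1.38 (SE 0.159), with an unadjusted p of 0.000951 and an adjusted p of 0.237 in a limma fit of the 4 MPP libraries. Among the shared regions of all 9 libraries its percentiles were 0.158, 17.4 and 0.223 in LT-HSC KO, against 6.95 and 16.6 in LT-HSC WT libraries, and these overlapped. Over both cell types, where 5.99% of shared regions were higher in KO and 4.7% higher in WT at an unadjusted p under 0.05, the difference was -1.26 (SE 0.394, unadjusted p = 0.00985, limma adjusted p = 0.395), and the KO minus WT difference was not shown to vary between cell types (interaction 0.48, SE 0.788, adjusted p = 0.799).

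**Figure D5:**
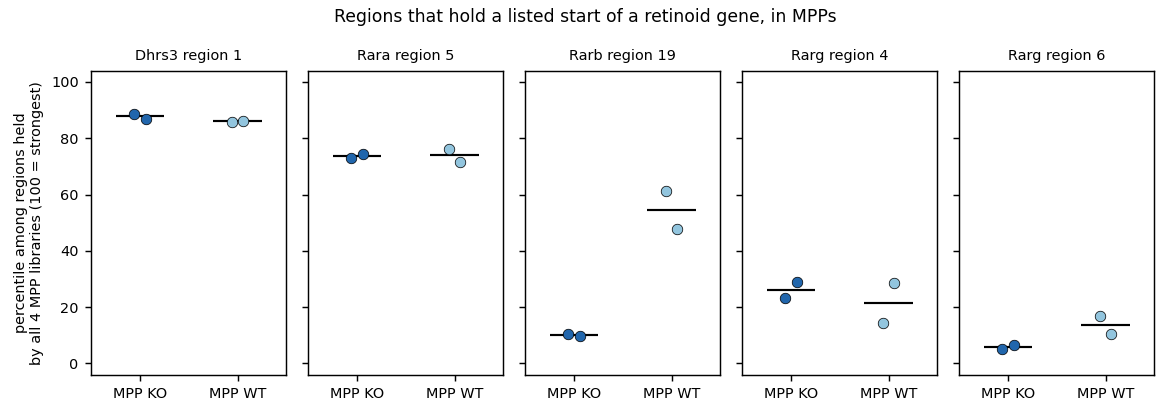
Strength percentile (100 strongest) of the 5 retinoid gene regions that hold a listed start and were held by all 4 MPP libraries, among 64003 regions. Points are libraries and bars means. At the Rarb start (Rarb region 19) KO libraries lie at 9.86 and 10.6 and WT libraries at 47.8 and 61.2, while the Rara start region lies between 71.5 and 76.3 and the Dhrs3 start region between 85.7 and 88.7.

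In that MPP fit 6.82% of all regions were higher in KO and 6.77% higher in WT at an unadjusted p under 0.05. Of the 54 retinoid regions, 2 were higher in KO (3.70%) and 2 higher in WT (3.70%). Those higher in KO were the Dhrs3 region at 144898241 (41.9 and 40.0 in MPP KO against 25.8 and 21.9 in MPP WT libraries, difference 0.48, adjusted p = 0.279) and a region 94.2 kb outside Cyp26a1 at 37795429 to 37796026 (56.4 and 56.4 in MPP KO against 39.5 and 41.0 in MPP WT libraries, difference 0.41, adjusted p = 0.292). Those higher in WT were the Rarb start and the outer Rarg start (102257155 to 102258084), whose percentiles were 5.12 and 6.62 in MPP KO against 16.9 and 10.4 in MPP WT libraries (difference -0.46, limma adjusted p = 0.351). The median difference was 0.05 over the 54 regions and 0.00235 over all. The Rara and Dhrs3 start regions had differences of -0.00864 (SE 0.116) and 0.09 (SE 0.108).

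In LT-HSCs, the genotype values turned on which KO library was used. For the Rarb region at 16605447, LT-HSC KO percentiles of 83.1, 78.2 and 45.6 stood above LT-HSC WT values of 14.8 and 21.2 (difference in score 1.47, SE 0.328, unadjusted p = 0.00134, limma adjusted p = 0.0864). At an unadjusted p under 0.05, 14% of all shared regions were higher and 10.9% lower in KO LT-HSCs by limma. The interaction with cell type was 1.65 (SE 0.487, unadjusted p = 0.0073, adjusted 0.592), where 5.1% of shared regions had a higher and 3.04% a lower KO minus WT difference in LT-HSCs than in MPPs at an unadjusted p under 0.05. Without LT-HSC KO 4, which left 2 KO and 2 WT LT-HSC libraries, 22.1% of all shared regions were called higher and 23.3% lower in KO LT-HSCs, against 0% with it. Among the 9 retinoid regions 3 were then called higher in KO LT-HSCs, which were Rarb at 16605447 (difference 1.79, adjusted p = 0.000783), the region outside Rarb at 17172414 (1.82, adjusted p = 0.00162) and the Dhrs3 start (1.29, adjusted p = 0.0415), all by limma. Another 3 were called lower in KO LT-HSCs, which were Rara at 98941733 (-1.40, adjusted p = 0.0029), Rarg at 102243250 (-1.27, adjusted p = 0.00551) and the Crabp2 region (-0.70, adjusted p = 0.0121), also by limma. The interaction with cell type was then called for both Rarb regions (1.98, adjusted p = 0.00603, at 16605447 and 1.68, adjusted p = 0.0171, at 17172414), with a KO minus WT difference higher in LT-HSCs than in MPPs, as at 12.9% of all shared regions. It was also called for Rara (-1.44, adjusted p = 0.0208) and Rarg (-1.25, adjusted p = 0.0405), with that difference lower in LT-HSCs, as at 11.7% of all. Over both cell types 4 of the regions passed, with both Rarb regions higher in KO (0.80, adjusted p = 0.0119, and 0.97, adjusted p = 0.0142) and Rara and Rarg higher in WT (-0.68, adjusted p = 0.0288, and -0.65, adjusted p = 0.0391), beside 12% of all shared regions higher in KO and 10.1% higher in WT. The KO libraries then left in LT-HSCs, KO 1 and KO 2, were the pair that stood apart from the rest.

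At other genes of the pathway MPP-only calls made up 27.5% to 39.7% of the regions tested, on either side of the 31.9% of all regions tested, and LT-HSC-only calls 0% to 2.5%, beside 0.442% of all. Of 58 tested regions at 28 genes of retinoid transport and metabolism, 0 were LT-HSC-only and 23 MPP-only (39.7%), with most in Fabp5 (5), which carries retinoic acid to another nuclear receptor, and Aldh1a3 (4), a retinaldehyde dehydrogenase like Aldh1a1. Of 134 tested regions at 16 receptor partners and cofactors, 0 were LT-HSC-only and 41 MPP-only (30.6%), with most in the corepressor subunit Tbl1xr1 (9), and 5 in the coactivator Ncoa2. At 20 known target genes of retinoic acid, 2 of 80 tested regions were LT-HSC-only, among them 1 in the immediate early gene Egr1, and 22 were MPP-only (27.5%), with most in Cebpb (5) and Cd38 (3). No region of the 3 lists was called between genotypes in rank by limma, as 0% of all regions were. For presence only 4, 2 and 2 regions of the 3 lists could be tested, and none had an unadjusted p under 0.05. Of all regions testable for presence, 2.36% were higher in KO and 0.128% in WT libraries at that level.

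Other genes also held regions of both kinds. In all, 108 of 20665 protein-coding genes held at least 1 LT-HSC-only and at least 1 MPP-only region over the 9 libraries. The whole genome had 230 LT-HSC-only and 16604 MPP-only calls. How many genes held an LT-HSC-only region at all was not computed. To find patterns like that of Rarb, genes were ordered by the smaller of the 2 counts and then by their sum. Rarb, with 2 and 4, came first in that order, which is no separate support for its pattern. Tent5c followed with 2 and 2, then Rftn1 (1 and 15), Kctd1 (1 and 12), Itpr1 (1 and 10) and Zfp516 (1 and 9). At equal list length none of the 4 MPP-only regions of Rarb kept its call, nor did its LT-HSC-only region at 16500813. Long genes hold more regions, and no share per length was computed.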

How the data were processed

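ATAC-seq peak lists of 9 libraries were used as deposited by the authors. By their format and values, the lists are in narrowPeak format, with 1 list called per library. Each deposited peak carries its fold over background (a ratio), −log10 p, −log10 q and a display score, as the authors' caller gave them. Per the submitters' processing notes, the build was mm10 and the tools include cutadapt 1.7, FastQC, Bowtie2, SAMtools 0.1.18, MACS2 2.1.1, DiffBind 2.6.6, edgeR 3.20.9 and HOMER 4.10.3. How each was used, and how reads were shifted for Tn5 and duplicates handled, is not stated there. No read counts were used, so depth is unknown.

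Merging, ranking, Fisher's exact test and the exact test of genotype within cell type were run in Python 3.11.15 (pandas 2.3.3, scipy 1.17.1). Rank scores were fitted with limma 3.58.1 in R 4.3.3, with 4 group means. Tests ran over all eligible regions with Benjamini-Hochberg adjustment, and the methods were tested on simulated data. Genes came from RefSeq GRCm38.p6 (20665 protein-coding genes). Where several genes held a midpoint, a retinoid gene took the region, and otherwise the shortest.

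The 10 genes and all lists were chosen with earlier results of these data known. All 10 are named. Some genes of the other lists enter the counts but are not reported here by name. Regions are given by position if called, if best held near a gene end, or if strongest, and a few others were chosen after their values were seen. No label says that replicates are separate animals or pools. The p-values therefore cover only the spread among libraries, which may be technical. Deviations of same-numbered libraries correlated between -0.07 and 0.04. In groups with only a pair of libraries the deviations mirror each other (r = -1), so these values cannot decide whether numbers pair libraries. The main tests left the numbers unpaired.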

Additional observations from a re-analysis of the deposited data

Results flagged for a closer look

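A single value among 22 groups of 4 or 5 libraries lay far from the rest of its group by Dixon's test, a rate that chance also gives, at about 1 in 20 groups. At the Rarb region of chromosome 14, 16605447 to 16605870, MPP WT 2 had a percentile of 3.22 among the shared regions, while the other MPP libraries lay between 1.16 and 1.49. All 4 values were at the weak end, and the LT-HSC to MPP difference there did not turn on this library.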

How the results depend on the processing

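Of the 2 LT-HSC-only and 13 MPP-only regions, equal-length lists gave 6 and 1, peaks with −log10 q of at least 5 gave 1 LT-HSC-only, while KO libraries alone showed 4 full separations for LT-HSCs and WT libraries alone 26 for MPPs, with no test. Leaving out each library gave 2 to 4 LT-HSC-only and 13 to 19 MPP-only regions, the 4 without LT-HSC WT 3. Leaving out both short LT-HSC lists, KO 1 and WT 3, an alternative chosen after seeing the data, gave 5 LT-HSC-only regions by presence and 4 higher in LT-HSCs by rank, against 2. The share of all regions called under that alternative is not given here, so these counts cannot be set against it. The 1 region ranked higher in MPPs became 0 with fold enrichment and 0 to 3 with each library left out. The 0 genotype calls by rank became 0 to 2 higher in KO and 0 to 2 higher in WT with each library left out, the 2 and 2 without LT-HSC KO 4. The mean share of regions held, 37.3% in LT-HSCs and 65.7% in MPPs, was 20% and 13.5% at equal length, and in MPPs 69.1% with −log10 q of at least 5 and 61.4% with summit windows. With replicate number as a block, presence could not reach the threshold (smallest p 0.0556 for cell type and 0.125 for genotype), so 0 regions of either kind were called. Replicate numbers 3 and 4 each belonged to 1 library, LT-HSC WT 3 and LT-HSC KO 4, so by rank the block fitted both exactly. That left LT-HSC KO 1 and KO 2 against WT 2 alone, so only effect sizes are given. The KO minus WT difference in score over both cell types was 1.11 at the Dhrs3 start, 0.89 for Rarb at 16605447 and 0.75 for the region outside Rarb. In LT-HSCs it was 2.13, 1.96 and 1.37 for these regions. There it was -1.05, -1.31 and -0.77 for the shared Rara, Rarg and Crabp2 regions. The interaction for Rarb at 16605447 was 2.15. The LT-HSC minus MPP difference was -1.11 for the shared Rara region, -0.74 for that of Rarg and 0.95 for the region outside Rarb. The cause of the other shifts was not tested. Depth is unknown, so a missing peak may be one that a longer list would hold.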
